A study of Drosophila melanogaster with 2 samples.

Results

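Of the 8443 peaks that the authors called from both replicates together, 614 lay at divergent coding promoters, places where protein-coding genes start on opposite strands a short distance apart. A peak was counted when its summit, the position of highest enrichment within it, was within 500 bp of annotated transcription start sites (TSSs) of at least 2 protein-coding genes on opposite strands. The peaks came from chromatin immunoprecipitation followed by sequencing (ChIP-seq), which recovers DNA bound by a protein. The material was whole Drosophila melanogaster embryos, 1 day of age, of the strain Drgx-GFP, in 2 biological replicates of 1 group that both carry a transgene for Drgx fused to eGFP. Drgx carries a DNA-binding homeodomain of the paired-like type. The labels describe an antibody against GFP for the precipitation and give Drgx as the antibody target. The labels do not say which promoter drives the fusion. A whole embryo holds all tissues, so a peak does not say in which cells the DNA was bound. No control library was used here, and which peaks come from the tagged protein was not tested.

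In the compact fly genome many neighbouring genes are arranged head to head, so that their transcripts run apart from a short shared stretch of DNA. Such promoters are typical of genes that most cells use, for example those of mitochondria, translation and DNA replication. Known proteins of these promoters include DREF, which binds the DNA replication-related element TATCGATA, BEAF-32, which binds CGATA, and M1BP, which binds the core promoter word GGTCACAC. Homeodomain proteins of the paired class bind the core TAATTA, and pairs of such proteins bind TAAT and ATTA separated by a short gap.

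The sequences below span each summit and 50 bp on either side for 7 of the strongest of these peaks, all lying between the start sites and overlapped by no annotated gene, on dm6, plus strand, 5′ to 3′. Names give the gene on the minus strand and then the gene on the plus strand. Capitals mark unbroken runs of at least 6 A or T, since these summits were rich in A and T.
mRpS23/CenG1A (chr2L:13835404-13835504): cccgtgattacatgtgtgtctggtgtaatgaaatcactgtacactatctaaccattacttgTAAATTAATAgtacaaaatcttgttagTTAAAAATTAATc
CG7601/CIA30 (chr3R:29736795-29736895): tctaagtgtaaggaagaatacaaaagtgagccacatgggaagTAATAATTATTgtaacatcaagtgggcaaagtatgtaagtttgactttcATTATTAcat
Tcs5/CHMP2B (chr3L:5139450-5139550): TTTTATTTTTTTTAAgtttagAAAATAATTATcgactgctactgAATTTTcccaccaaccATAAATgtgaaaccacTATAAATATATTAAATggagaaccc
CG5611/Mtl (chr3R:27636139-27636239): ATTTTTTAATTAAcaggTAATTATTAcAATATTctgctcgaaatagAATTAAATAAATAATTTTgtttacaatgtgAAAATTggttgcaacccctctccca
Art3/mRpS10 (chr3R:15229487-15229587): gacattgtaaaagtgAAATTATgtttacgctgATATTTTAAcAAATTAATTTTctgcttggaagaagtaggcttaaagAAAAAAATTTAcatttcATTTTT
CG13390/CG17294 (chr2L:8376819-8376919): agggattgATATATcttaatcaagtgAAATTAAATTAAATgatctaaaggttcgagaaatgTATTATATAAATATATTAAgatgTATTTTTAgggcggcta
fws/Lamtor3 (chr2L:17481080-17481180): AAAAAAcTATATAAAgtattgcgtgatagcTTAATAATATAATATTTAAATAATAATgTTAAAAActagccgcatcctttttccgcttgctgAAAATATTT
The window of fws and Lamtor3 had 57 bases in such runs and that of CG7601 and CIA30 had 18. Their G and C content was 23.8% and 31.7%.

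The 20 strongest peaks at divergent promoters all overlapped a thresholded peak of both replicates. Genes of the mitochondrial ribosome stood among them 3 times. Over all divergent peaks they were 17 of 1193 genes. Of those in divergent pairs 31.0% had a summit, close to the 29.8% of all paired genes. Whether 3 among the strongest exceeds their share was not tested. Values are the authors' peak signal, whose scale differs between lists, so they rank peaks within a list and are not compared across lists. The peak between mRpS23, a protein of the small mitochondrial ribosomal subunit, and CenG1A, an Arf GTPase-activating protein, reached 1919 (pooled), against 1003 and 926 in replicates 1 and 2 on their own scales (chr2L:13835304-13835620). It was followed by the peak between CG7601 and CIA30, which encodes an assembly factor of respiratory complex I, with 1918 pooled, 978 in replicate 1 and 952 in replicate 2. The peak between Tcs5, a kinase of the complex that modifies tRNAs, and CHMP2B, of the ESCRT-III membrane-remodelling machinery, had 1837 pooled, 916 and 943. These were the only 3 among the 20 strongest peaks of the whole pooled list, where they ranked 8, 9 and 13.

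The next peaks were at CG5611 and Mtl (1586 pooled, 869 and 690 in replicates 1 and 2), and at Art3, a protein arginine methyltransferase, and mRpS10 (1585, 871 and 729). The peak of Chro, which encodes the interband and spindle protein Chromator, and Ssl1, a subunit of the transcription factor TFIIH, had 1543 pooled, 892 and 660. That of CG1275 and Elp5, a subunit of the tRNA-modifying Elongator complex, had 1507 pooled, 720 and 801. Lower in the order came mRpL23 with CG9004 (1436 pooled, 755 and 708), fws, a Golgi tethering complex subunit, with Lamtor3 of the Ragulator complex (1397, 759 and 637), and the peroxisome division gene Pex11ab with CG8320 (1396, 748 and 638). The value printed for replicate 1 was the larger at 17 of these 20 peaks, and the scales of the replicate lists are separate. The remaining pairs of these 20 were CG3437/CG3552, CG13390/CG17294, tank/CG12194, CG8372/CG8360, Mnat9/CG1792, Fbw5/CG9147, CG11309/CG7632, Pdrg1/Pal1, CG31808/Cyt-c-d and CG5757/CG5098. Their pooled signals ranged from 1513 at CG3437 and CG3552 down to 942 at CG5757 and CG5098.

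**Figure D1:**
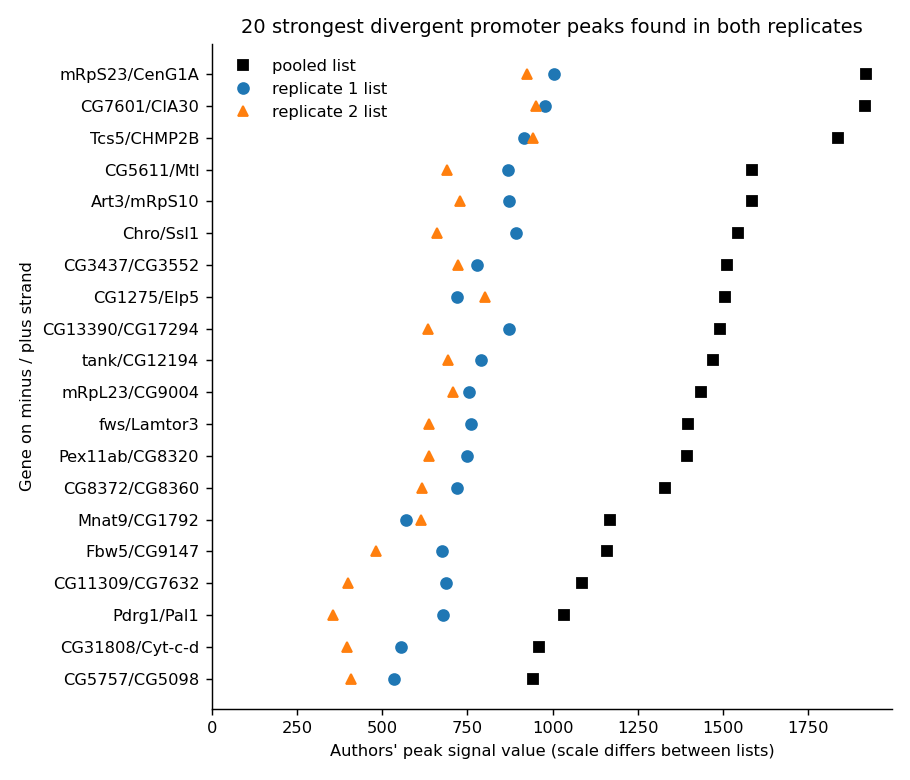
Signal values (horizontal axis, the authors' units) of the 20 strongest divergent promoter peaks that overlap a peak of both replicates, with 1 row per gene pair. Squares are the pooled list, circles replicate 1 and triangles replicate 2. All 20 are far above the pooled median of 141 for divergent promoter peaks.

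Peaks at divergent promoters ranked higher than promoter peaks with coding start sites on 1 strand only, of which there were 2238. The median signal was 141 for the 614 divergent peaks, 119 for the 2238 single-direction peaks and 120 for the whole list. The median percentile of signal within the pooled list was 59.4 for divergent and 49.5 for single-direction peaks. In the lists made from 1 replicate each it was 57.7 against 48.5 (replicate 1) and 61.0 against 48.9 (replicate 2), so divergent peaks ranked higher in each list. Of the divergent peaks 16.8% were among the tenth of the list with the highest signal, against 12.3% of single-direction peaks. Classes of peaks can be compared within each of the 2 replicates, where the smallest two-sided exact permutation p is 0.5, so no test was run. The intervals given here are exact 95% binomial intervals, which cover counting error only. Sequencing depth is unknown, because peak lists carry no counts of reads.

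Most divergent peaks had a counterpart in the replicates' own lists. Of the 614, 348 (56.7%, interval 52.7 to 60.6%) overlapped by at least 1 bp a thresholded peak of both replicates, where the share over the whole list was 51.1%. Single-direction peaks had 50.3% (48.2 to 52.4%). A further 123 overlapped a peak of replicate 1 only, 60 a peak of replicate 2 only and 83 neither. Those 83 were weak, with a median signal of 80.5 against 226 for peaks in both, and all 83 overlapped an unthresholded peak of replicate 1. Sharing followed signal: of the divergent peaks in the 2111 strongest of the pooled list, 206 of 212 (97.2%) were in both replicates, against 97.1% of single-direction peaks there. Of those in the 2110 weakest, 8 of 117 (6.84%) were, against 59 of 571 single-direction peaks (10.3%). Between these, the shares were 75.2% against 76.0% in the stronger 2111 peaks and 17.9% against 19.9% in the weaker 2111, so divergent peaks were not shared more often at like signal except by 206 of 212 against 538 of 554 in the strongest class. Across the 348 peaks in both lists, signal in replicates 1 and 2 gave a Spearman rank correlation of 0.878. The Pearson correlation on log2 signal was 0.915, and both are descriptions across peaks that share their libraries. Neighbouring pooled peaks could overlap the same replicate peak, as the 2 peaks of Brf and sds22 did. Some replicate values therefore entered the 348 and the correlations more than once.

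The highest divergent peaks without a partner in each replicate were a neighbouring pair between Acbp1, an acyl-CoA binding protein, and Piezo, a mechanosensitive channel. The summit nearer Acbp1 had 357 pooled, 144 in replicate 2 and no replicate 1 peak. The summit nearer Piezo had 283 pooled, 216 in replicate 1 and no thresholded replicate 2 peak, where the unthresholded list gave 56.1. Next was the peak of tty, a chloride channel, and fliI, an actin-binding protein (236 pooled, 210 in replicate 1, and 66.3 in the unthresholded list of replicate 2). A stronger peak of the same genes overlapped it and was in both replicates (414 pooled, 210 and 191). The 2 peaks were matched to the same replicate 1 value, so the 210 does not belong to the weaker peak alone. In all, the 614 peaks fell on 576 nearest gene pairs, of which 36 held 2 summits and 1 held 3.

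The position of the summit is partly set by the rule, which required start sites on both strands within 500 bp, and is given as a description. Of the 614, 592 (96.4%) had their nearest opposite-strand start sites in head-to-head order, with a median spacing of 288 bp (10th to 90th percentile 89 to 503 bp). The other 22 had overlapping starts, among them CG31808 and Cyt-c-d, a cytochrome c gene, where the plus-strand start lay 234 bp to the left of the minus-strand start. In 439 (71.5%, interval 67.7 to 75.04%) the summit lay between the starts, and this share was 72.4% in the replicate 1 list and 79.0% in that of replicate 2. The summit favoured neither strand, being nearer the plus-strand start in 313 and nearer the minus-strand start in 296, with 5 ties. Its median distance was 97 bp to the nearer start and 216 bp to the farther one. Among the 153 strongest members the summit lay between the starts in 78.4% (interval 71.1 to 84.7%) and among the 153 weakest in 58.8% (50.6 to 66.7%). Of the 20 strongest named above, 11 had the summit between the starts and 9 did not.

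**Figure D2:**
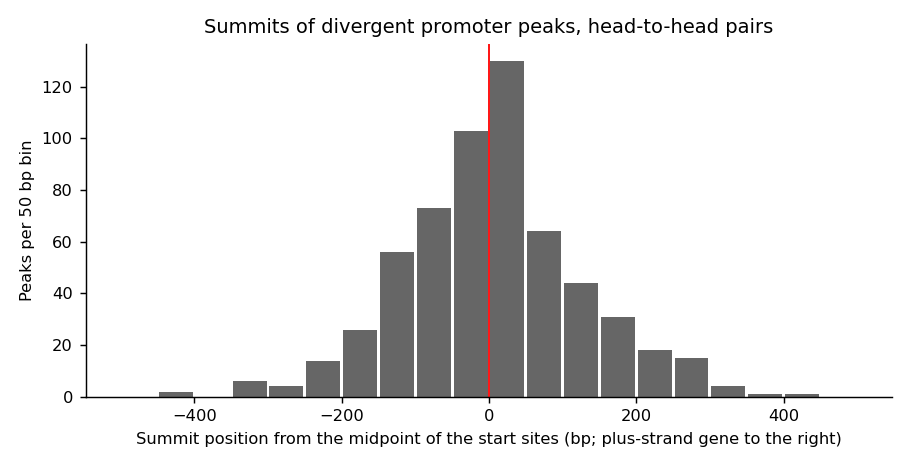
Position of the summit (horizontal axis, bp) from the midpoint of the start sites for the 592 head-to-head divergent peaks, with peaks per bin of 50 bp on the vertical axis. Of the summits 370 (62.5%) are within 100 bp of the midpoint, a distance that the 500 bp rule limits.

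Divergent promoters held more peaks for their length. The sequence within 500 bp of coding start sites on both strands came to 1.67 Mb and held 367 summits per Mb. Sequence within 500 bp of coding start sites on 1 strand only came to 13.7 Mb and held 164 per Mb, a ratio of 2.24, and the whole genome held 63.1 per Mb. Each base of the divergent sequence lies near starts on both strands, so the ratio is per length and not per start site. The ratio was 2.35 in the replicate 1 list and 2.31 in the replicate 2 list. Seen from the genes, 29.8% of the 5141 coding genes with an opposite-strand coding start within 1000 bp had a summit within 500 bp of a start, against 15.7% of the other 8804 and 20.9% of all 13945. A summit near the starts of both genes of a pair counts for each of them.

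The annotation held 2720 divergent coding pairs whose closest start sites are at most 1000 bp apart, and 599 (22.0%, interval 20.5 to 23.6%) had a summit within 250 bp of the midpoint. Replicate 1 alone gave 17.7% and replicate 2 alone 15.8%. A window of the same length at the most upstream start of each gene with no divergent partner held a summit for 9.81% of 8804 genes (7.28% and 6.52% in replicates 1 and 2). A pair window serves 2 genes, so these shares are per window and not per gene. With any start of such a gene counted, the share was 12.3%. Of the 2121 pairs with no thresholded summit, 42.7% had a peak of the unthresholded pooled ranking at the midpoint, against 38.8% of the 7724 genes with no divergent partner and no thresholded summit at any start. The pairs have a single window each and the genes were read at every start.

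The share of occupied pairs differed with the distance between the start sites. Among head-to-head pairs, 33.3% of the 529 spaced over 200 and up to 300 bp were occupied (interval 29.3 to 37.5%), against 17.5% of the 354 spaced over 100 and up to 200 bp (13.7 to 21.9%). Pairs spaced up to 100 bp had 19.8%, those over 300 and up to 500 bp 27.2% and those over 500 bp 12.7%. For spacings over 500 bp, the window of 250 bp on each side of the midpoint ends at or before both start sites. The share of these widely spaced pairs is therefore partly limited by the window. The share was highest in the class up to 300 bp in each replicate's own list too, with 29.3% in replicate 1 and 25.5% in replicate 2. Core histone genes, which stand in many near-identical head-to-head copies on 2L and whose reads cannot be placed surely, accounted for 42 pairs with no thresholded summit. Without them the class up to 200 bp had 19.6%. Base composition moved with spacing: windows at the midpoint held 27.1% G and C for pairs spaced over 200 and up to 250 bp and 44.8% for pairs spaced up to 50 bp. Its part in the result was not tested.

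**Figure D3:**
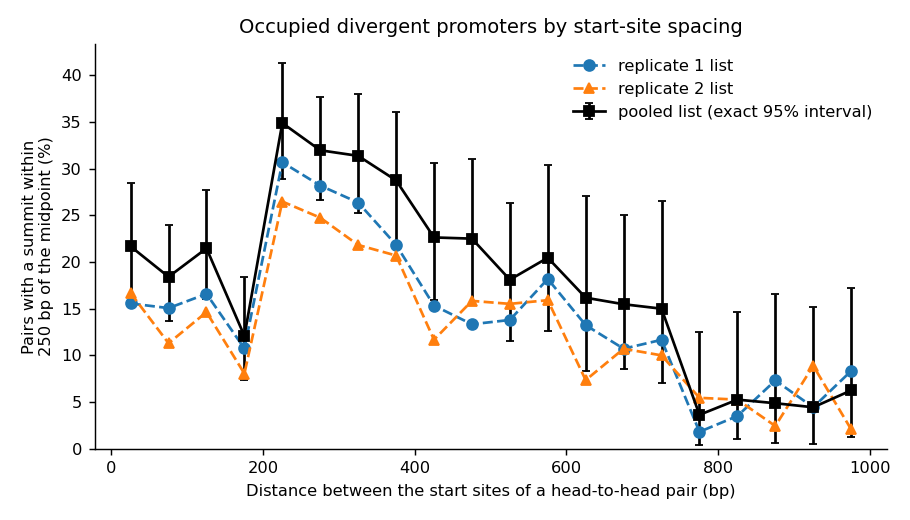
Share of head-to-head coding pairs with a summit within 250 bp of the midpoint (vertical axis, %) by the distance between their start sites (horizontal axis, bins of 50 bp). Squares with exact 95% intervals are the pooled list, circles replicate 1 and triangles replicate 2. The share rises from 12.1% in the bin ending at 200 bp to 34.9% in the bin ending at 250 bp and is 6.25% or less beyond 750 bp. Over 500 bp the counted window ends at or before both start sites, which limits the share.

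Divergent pairs on the X chromosome were occupied less often than those on the autosome arms in all 3 lists. Of 392 head-to-head pairs on X, 64 (16.3%, interval 12.8 to 20.4%) had a summit at the midpoint, against 518 of 2212 (23.4%, 21.7 to 25.2%) on 2L, 2R, 3L and 3R. Replicate 1 gave 11.0% against 19.3% and replicate 2 gave 7.65% against 17.5%. Among the arms 3R had the highest share (26.0%) and 2R the lowest (20.2%). At genes with no divergent partner, 11.1% of 1402 most upstream starts on X had a summit within 250 bp, against 9.04% on 2L and 10.7% on 2R, the lowest and the highest of the arms. The contrast between pairs and single genes was not tested. None of the 11 head-to-head pairs on chromosome 4 had a summit.

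Divergent summits were AT-rich. The window reaching 50 bp to each side of the summit held 33.4% G and C on average, against 40.8% at single-direction promoter summits and 36.9% over all peaks. The replicate lists gave 31.5% against 38.7% and 34.2% against 40.1%. Midpoints of head-to-head pairs with no peak held 34.0%. Within the divergent peaks, G and C content fell with signal, being 28.2% in the 153 strongest and 39.6% in the 153 weakest (Spearman rank correlation -0.42 across 614 peaks). Single-direction peaks showed the same order, 32.7% in the 559 strongest and 45.9% in the 559 weakest. Of the 523 head-to-head pairs with the lowest G and C at the midpoint 31.4% were occupied (interval 27.4 to 35.5%), against 13.8% (10.9 to 17.0%) of the 523 pairs between 34.7 and 43.6% and 19.7% of the 523 richest.

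**Figure D4:**
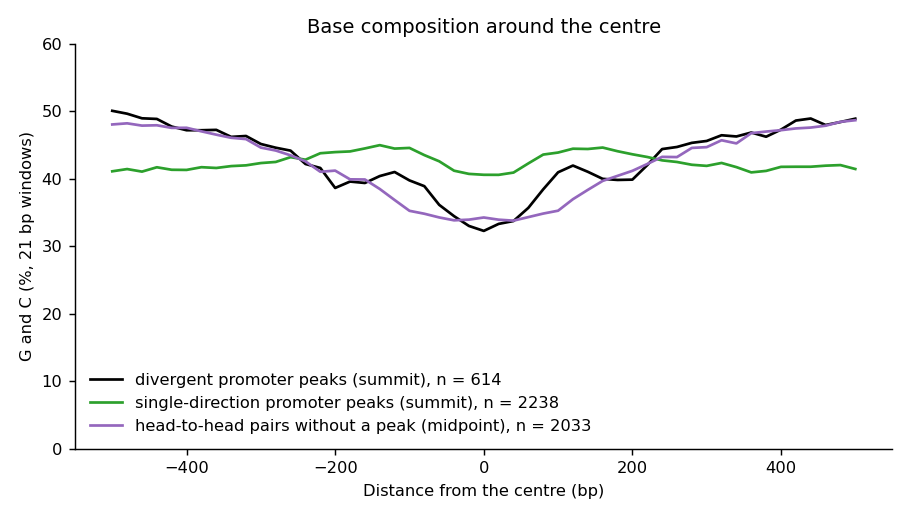
Mean G and C content (vertical axis, % in windows of 21 bp) by distance from the centre (horizontal axis, bp) for the 614 divergent promoter peaks and the 2238 single-direction promoter peaks, centred on summits, and for the 2033 head-to-head pairs without a peak, centred on the midpoint. Divergent peaks fall to 32.3% at the summit and reach 50.1% at 500 bp to the left, and pairs without a peak are at 34.3% at the midpoint. At 120 bp to the right the values are 42.0% for divergent peaks and 37.0% for pairs without a peak.

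Homeodomain words were more frequent at divergent summits than at single-direction ones. These words are made mostly of A and T, and the windows held 33.4% and 40.8% G and C. How much of the contrast goes with base composition was not tested. TAATTA was in 75 of 614 of these windows (12.2%, interval 9.73 to 15.1%), against 6.26% (5.29 to 7.34%) at single-direction promoter summits and 7.97% at all peaks. Windows 500 bp to the left and right of the divergent summits, which largely reach into the genes and held 49.6% and 48.6% G and C, had 2.93% and 2.77%. Midpoints of head-to-head pairs with no peak had 10.4% (9.13 to 11.8%), in windows centred differently. With both centred on the midpoint, TAATTA was at 14.5% of the 599 occupied pairs (11.8 to 17.6%) and 10.3% of the 2121 unoccupied pairs (9.02 to 11.6%). The direction turned with base composition: of head-to-head pairs of lower G and C 33.3% were occupied with the word and 26.2% without, and of those of higher G and C 11.5% of 61 and 17.0%. TAAT and ATTA separated by 2 bases were at 3.09% of divergent summits (1.87 to 4.79%), 0.983% of single-direction summits and 1.33% of unoccupied midpoints (0.877 to 1.93%). With a gap of 3 bases the shares were 2.61%, 1.03% and 1.67%. With both centred on the midpoint, the dimer of gap 2 was at 2.34% of occupied pairs (1.28 to 3.89%). It was at 1.27% of unoccupied pairs (0.841 to 1.85%). The dimer of gap 3 was then at 3.17% (1.92 to 4.91%) and 1.60% (1.11 to 2.23%). For each gap the intervals of occupied and unoccupied pairs overlapped. The sequence below from GNBP2 and GNBP1, paired genes of recognition proteins for microbial cell walls, shows such a dimer in capitals.

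TATCGATA and CGATA were rarer at divergent summits than at the midpoints of unoccupied pairs, and TATAAA was not. GGTCACAC had a lower share too, but its intervals overlapped at like centring. Windows of divergent summits are centred on the summit and those of unoccupied pairs on the midpoint. With both centred on the midpoint, TATCGATA was at 1.84% of occupied pairs (0.920 to 3.26%) and 5.75% of unoccupied pairs (4.80 to 6.83%). CGATA was then at 15.025% of occupied pairs (12.3 to 18.1%) and 25.5% of unoccupied pairs (23.6 to 27.4%). For GGTCACAC these shares were 1.67% (0.803 to 3.05%) and 3.02% (2.33 to 3.84%). TATCGATA was at 12 of 614 divergent summits (1.95%, interval 1.01 to 3.39%), 5.76% of unoccupied head-to-head midpoints (4.78 to 6.86%) and 0.581% of single-direction summits. CGATA, which lies inside TATCGATA, was at 17.8% of divergent summits and 26.0% of unoccupied midpoints, and GGTCACAC at 1.30% and 3.15%. At single-direction summits CGATA was at 12.7% (11.3 to 14.1%) and GGTCACAC at 0.894% (0.547 to 1.38%). TATCGATA, CGATA and GGTCACAC were thus less frequent there than at divergent summits, with overlapping intervals for GGTCACAC. GAGAGAG, which GAGA factor binds, stood at 1.14% of divergent summits (0.460 to 2.33%) and 5.27% of single-direction summits (4.38 to 6.28%). Unoccupied midpoints were close to divergent summits, with GAGAGAG at 1.57% (1.08 to 2.21%). In the replicate 2 list, which leaves out replicate 1, it was at 0.477% of divergent summits. TATAAA, the TATA box, was at 25.2%, against 14.6% at single-direction summits and 22.2% at unoccupied midpoints. It is made of A and T only, and how much of this goes with base composition was not tested. Midpoint windows of occupied pairs had TATAAA in 24.9% and those of unoccupied pairs in 21.7%, with overlapping intervals. Among head-to-head pairs of lower G and C, 29.2% were occupied with the word and 26.6% without. At higher G and C the direction turned, with 7.75% of 129 against 17.8%. CAGGTAG, the site of the early embryonic factor Zelda, was at 1 of 614 (0.163%, interval 0.00412 to 0.904%). It was rare elsewhere too, at 0.313% of single-direction summits, 0.332% of all peaks and 0.443% of unoccupied midpoints, all within that interval. All words were read on both strands, and a match is no evidence of binding. Over the starts of all 13945 coding genes, windows of the same length centred on the most upstream start held TAATTA in 2.88%, TATCGATA in 5.56%, GGTCACAC in 5.59% and CAGCTG in 9.34%. Examples with the word in capitals and up to 10 bp on either side, all between the start sites (dm6, plus strand, 5′ to 3′), are printed here because these words are rare at divergent summits.
GNBP2/GNBP1 (chr3L:18675583-18675612): aaaagcccatTAATACATTAtttaattcct
Cht11/CG4558 (chrX:6849747-6849769): atccctagttTATCGATAacaac
CG12321/MED17 (chr3R:18189035-18189062): agcactcattTATCGATAgccggccgca
Gfat2/Moca-cyp (chr3R:28339855-28339882): cattggctttGTGTGACCgtattgcagc
CG15356/CG15362 (chr2L:1980783-1980810): aggccgctgcGGTCACACtgcggccagg
The GNBP2 and GNBP1 peak had a pooled signal of 510, and the other 4 had 182 at Cht11 and CG4558, 181 at CG12321 and MED17, 116 at Gfat2 and Moca-cyp and 88.7 at CG15356 and CG15362. None of the 153 strongest divergent peaks had TATCGATA, GGTCACAC or GAGAGAG within 50 bp of the summit, where the exact interval for 0 of 153 reaches 2.38%. That limit is above the shares over all 614, which were 1.95%, 1.30% and 1.14%. Of the 153 weakest, 2, 6 and 2 had these words. The strongest windows held 28.2% G and C and the weakest 39.6%, and the part of base composition was not tested.

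**Figure D5:**
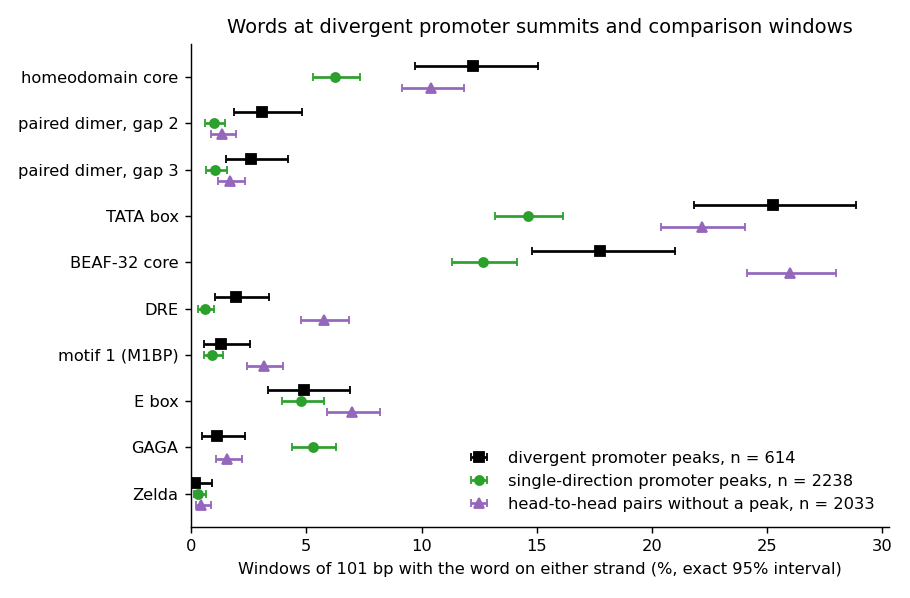
Share of windows reaching 50 bp to each side with each word on either strand (horizontal axis, %, with exact 95% intervals) for divergent promoter summits (squares), single-direction promoter summits (circles) and midpoints of head-to-head pairs without a peak (triangles). The homeodomain core is at 12.2% of divergent and 6.26% of single-direction summits, and the DNA replication-related element (DRE) is at 1.95% of divergent summits and 5.76% of unoccupied midpoints.

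The same core promoter words were common a little way off the summit. The TATCGATA nearest the summit was centred 50 to 150 bp from it in 10.9% of divergent peaks, against 1.74% of single-direction peaks and 7.82% of unoccupied midpoints. Within 250 bp, 17.1% of divergent peaks and 18.9% of unoccupied midpoints had it. GGTCACAC lay 50 to 150 bp away in 8.96% of divergent peaks, and within 250 bp it was in 16.1% of them, in 15.9% of unoccupied midpoints and in 4.65% of single-direction peaks. GAGAGAG went the other way, being within 250 bp of 5.21% of divergent and 26.1% of single-direction summits. Unoccupied midpoints had 5.36%, so its low share was not particular to pairs with a peak.

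The E box CAGCTG, a core promoter word of housekeeping genes in flies, was read in windows of different reach around the midpoint. Within 50 bp, 19.8% of pairs with it were occupied and 22.4% of those without, a direction that turned within the pairs of lower G and C (33.3% of 12 against 27.5%) and of higher G and C (18.8% of 165 against 16.5%). Of the 768 head-to-head pairs with CAGCTG within 250 bp of the midpoint, 222 (28.9%, interval 25.7 to 32.3%) had a summit there, against 360 of 1847 (19.5%) without it. Replicate 1 gave 23.96% against 15.5% and replicate 2 gave 20.8% against 13.9%. Among pairs spaced over 200 and up to 300 bp the shares were 42.3% (35.3 to 49.6%) with and 27.9% without the word, and over 300 and up to 500 bp they were 38.5% and 22.9%. Up to 100 bp they were 22.2% and 17.8%. In the class up to 200 bp and that over 500 bp the pairs with the word were not higher (15.04% against 18.7% and 12.1% against 12.8%). Among the pairs of lower G and C it was 39.2% against 23.2%, and among those of higher G and C 19.7% against 15.4%. At genes with no divergent partner the shares were 10.8% with and 9.49% without CAGCTG around the most upstream start. The word lay mostly beside the summit, centred 50 to 150 bp away in 22.6% of divergent peaks and within 50 bp in 5.05%. In the replicate 1 list, which leaves out replicate 2, the latter share was 3.22%.

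Genes were grouped by function through lists of symbols, and the share of each list with a divergent peak within 500 bp of a start is to be read against 8.56% of all coding genes. The lists differ in how many of their genes stand in divergent pairs (36.9% of all coding genes), so the share with any summit among the genes in such pairs is also given, which was 29.8% over all 5141. These are descriptions of lists chosen with results known and were not tested. The shares come from small counts and carry no intervals. Whether any list lies above or below all coding genes beyond counting error was not tested.

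Genes of cytoplasmic ribosomal proteins, aminoacyl-tRNA synthetases, oxidative phosphorylation and, among paired genes by little, mitochondrial ribosomal proteins had shares above those of all coding genes, while translation factors were below. Of 86 cytoplasmic ribosomal protein genes 39 (45.3%) had a summit of any class within 500 bp of a start, against 20.9% of all coding genes. Their high share was thus not confined to divergent peaks. A divergent peak was at 21 of the 86 (24.4%), and of the 53 in divergent pairs 27 (50.9%) had a summit. The strongest were RpL34b (357 pooled, 213 and 148 in replicates 1 and 2), RpL32 (314, 175 and 150) and RpS20 (279, 181 and 86.6), while RpS21, RpLP0 and RpL4 were in neither replicate's thresholded list. RpL13, with 102 pooled, shared its peak with Dref, the gene of the factor that binds TATCGATA, and was in the thresholded list of replicate 1 (60.5) but not of replicate 2, whose unthresholded list gave 52.6. Of 73 mitochondrial ribosomal protein genes 17 (23.3%) had a divergent peak, and 18 of the 58 in pairs had a summit (31.0%), close to the share of all paired genes. After mRpS23, mRpS10 and mRpL23 came mRpL20 (571 pooled, 316 and 256), mRpL24 (569, 334 and 240) and mRpS2 (556, 346 and 213). The next, mRpL2, had 167, so the list split into 6 strong peaks and 11 weaker ones. Of 32 aminoacyl-tRNA synthetase genes, which charge tRNAs, 9 (28.1%) had a divergent peak, led by GluProRS (393 pooled, 221 and 179), IleRS (294, 163 and 131) and ThrRS (259, 155 and 113). In divergent pairs 9 of 22 of these genes were occupied (40.9%). Of 90 oxidative phosphorylation genes 16 (17.8%) had one, and 17 of the 48 in pairs had a summit (35.4%). They were led by the complex I subunit ND-ASHI, paired with the fumarase gene Fum1 (711 pooled, 407 and 300.98), then ND-MWFE (244, 119 and 119) and the cytochrome c oxidase subunit gene levy (225, 121 and 95.6). Translation factors had 3 of 60 (5%), the strongest being eIF3h (235, 120 and 118), and 6 of the 29 in pairs had a summit (20.7%).

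Proteasome, spliceosome and DNA replication genes in divergent pairs had shares with a summit below the 29.8% of all paired genes. Proteasome subunits had 4 of 48 (8.33%), led by Rpn3 (189 pooled, 95.5 and 98.5), and in pairs 4 of 26 were occupied (15.4%). Spliceosome genes had 5 of 38 (13.2%), led by the splicing factor gene U2af50 (308, 188 and 120), although 84.2% of this list stands in divergent pairs, of which 18.8% were occupied. DNA replication genes had 5 of 41 (12.2%), and 6 of the 29 in pairs had a summit (20.7%). The polymerase delta subunit gene PolD2 led them (587 pooled, 304 and 287), and RPA1, of the single-strand binding complex, and Mcm2, of the replicative helicase, shared 1 peak between their starts (185, 103 and 90.8). Of 92 core histone genes and variants only the variant His2Av had a divergent peak (183, 103 and 74.8), shared with the protein kinase gene ball.

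None of 83 homeobox genes had a divergent peak, although 21 of them (25.3%) had a summit within 500 bp of a start, and only 4 of the 83 stand in divergent pairs. Of 180 chemosensory receptor genes, 27 of them in pairs, 1 had a divergent peak, Ir60e, with 78.8 pooled, 42.3 in replicate 2 and no thresholded replicate 1 peak. The 6 Hsp70 genes matched by symbol stand in no divergent coding pair and had no summit.

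Values next to the distance limit of 500 bp are given as a description of 3 peaks on each side. Just inside it were the peaks of app, a palmitoyltransferase gene, and CG32100 (441 pooled, farther start at 500 bp), of Polr1D, an RNA polymerase subunit gene, and the growth regulator brat (82.3, 500 bp) and of stg, the Cdc25 phosphatase gene String, and CG45544 (177, 499 bp). Just outside were those of CG13605 and Root (152, 504 bp), of Not1, of the deadenylase complex, and Nt5c (110, 504 bp) and of p and CG8036 (161, 507 bp).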

How the data were processed

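The authors deposited 8 peak lists on dm6, made, per the deposited readme texts, from alignments of each replicate or of both. The aligner and peak caller were not given in the sources used here. In each list, peaks carry a score set by the authors from the irreproducible discovery rate (IDR), at least 830 in the 4 thresholded lists, and a deposited signal value of unstated scale, used only within a list. The pooled list is the thresholded list from both replicates that is not called conservative. The ranked lists of the replicates and the pooled ranking served for unthresholded peaks, and the ranking behind the conservative list was not used. The depth per library is unknown. The lists came from 2 samples of 1 group, whose separate origin the labels state as biological replicates.

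Summits, the peak start plus the deposited offset, were compared with all annotated TSSs of Ensembl release 115 on X, 2L, 2R, 3L, 3R and 4, without transposable elements. Coordinates are 1-based and 0 peaks lay beyond a chromosome end of the RefSeq Release 6 assembly, from which sequences were read. Words were searched on both strands. Python 3.11.15, numpy 2.4.6, pandas 2.3.3 and scipy 1.17.1 were used, and the classification was tested on simulated positions. No test was run and no p-value is given. Named peaks are the 20 strongest divergent peaks in both replicates, the 3 strongest lacking a replicate, list genes by signal (up to 3 per list by the rule, further ones chosen after their values were seen) and peaks next to the distance limit. The members and lists were chosen with earlier results of these data known. Alternatives were other lists, stronger peaks, other distances, 1 TSS per gene and wider windows.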

Additional observations from a re-analysis of the deposited data

How the results depend on the processing

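The number of divergent peaks was 357 with the peaks above the median signal (the stronger peaks), 357 with start sites within 250 bp and 940 within 1000 bp, and their share of the list was 8.46%, 4.23% and 11.1%, or 6.55% with 1 start per gene. The density ratio against single-direction promoters stayed above 1 in every setting tried: 2.64 with the stronger peaks, 2.89 within 250 bp, 1.72 within 1000 bp and 2.53 with 1 start per gene, and 2.31 to 2.35 with 1 replicate left out. Occupied pairs were 13.3% with the stronger peaks, 14.0% within 100 bp of the midpoint, 28.1% within 500 bp and 15.8 to 17.7% with a replicate left out. The share of divergent peaks in both replicates was 88.2% in the stronger peaks and 62.7% within 250 bp, and 66.4 to 76.7% when only 1 replicate was required. The median signal percentile was 79.3, 65.0 and 52.3 with the stronger peaks, within 250 bp and within 1000 bp. Summits between the starts were 77.6% (stronger peaks), 75.1% (250 bp), 61.6% (1000 bp) and 65.3% (1 start per gene), and 72.4 to 79.0% with a replicate left out. G and C was 30.1% (stronger peaks), 31.4% (250 bp), 36.3% (1000 bp) and 35.7% in windows reaching 100 bp to each side, where TAATTA was at 21.2%. Coding genes with a divergent peak numbered 1193, and 722 with the stronger peaks and 734 within 250 bp. The last count's settings, the leaving out of core histone pairs and the splits of pairs by spacing, G and C and CAGCTG were chosen after seeing the data. The lists hold no depth, so counting error of reads could not be given. No paired analysis was possible because no value comes from a test and there is 1 group. Classes of peaks seen in both replicates were set side by side within each replicate, and 2 such differences cannot give an exact two-sided p below 0.5.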
